A study of Homo sapiens with 40 samples.

Results

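The genes described here encode 10 heat shock proteins and their partners in the cytosol and mitochondria: the inducible HSP70 genes HSPA1A and HSPA1B, the constitutive HSP70 gene HSPA8, HSPH1, HSP90AA1, DNAJB1, BAG3, HSPB1, and the mitochondrial pair HSPD1 and HSPE1. They were taken by symbol from a table of 19962 genes, and all 10 were found. The labels describe RKO, an established line of human colorectal carcinoma cells, in which Cas9 is made after doxycycline (Dox) is added, with GFP listed in the genotype. Every group therefore carried inducible Cas9 and GFP, and also a lentiviral vector with a pair of guide RNAs driven by human and mouse U6 promoters and a BFP marker. Cells positive for BFP were sorted as a population, and no single clone is named. The guides were directed against IGF2BP2 (sgIGF2BP2), IGF2BP3 (sgIGF2BP3) or AAVS1, a control site (sgAAVS1). IGF2BP2 and IGF2BP3 are RNA-binding proteins.

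There were 10 groups of 4 libraries. Each of the 3 lines was given Dox at 250 ng/mL for 72 hours or DMSO. The sgIGF2BP2 and sgIGF2BP3 lines, without Dox, were also transfected for 48 hours with 75 nM of a non-targeting siRNA (siControl) or of an siRNA pool against the same gene as the guides (siIGF2BP2 or siIGF2BP3). All cells received the labelled nucleoside s4U at 250 µM for 2 hours, and poly(A) RNA was sequenced. A replicate was 1 well, so a p-value measures the spread between wells, and the labels do not say whether wells were grown on separate days. No group was heated or treated with a compound that unfolds proteins, so the values are levels at the cells' usual temperature.

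Heat shock proteins bind unfolded stretches of other proteins and help them to fold, or hold them until they can be refolded or degraded. HSP70 proteins are loaded with clients by J-domain proteins such as DNAJB1, release them with the help of exchange factors such as HSPH1 and BAG3, and pass some of them on to HSP90. HSPB1 is a small heat shock protein that holds unfolded clients without ATP, while HSPD1 and HSPE1 form the folding chamber of the mitochondrial matrix and its lid. Many of these genes are switched on by the heat shock factor HSF1, which binds inverted repeats of the letters GAA near their start sites, and tumour lines often keep them active without heat.

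The promoter sequences of these genes were searched for that element, and some of the matches are printed below. Whether the element bears on the changes reported here was not tested. RefSeq promoter windows (GRCh38.p14, 250 bases before to 50 after a start site) were matched by symbol for 10 of the 10 genes, 14 windows in all. They were searched on both strands for 3 alternating units, GAANNTTCNNGAA or TTCNNGAANNTTC, and for 2 units, GAANNTTC or TTCNNGAA. A match of 3 units also counts as a match of 2. Among 35116 human promoter windows of this length, 172 (0.49%) held 3 units and 4737 (13.5%) held 2 units. Of the 14 windows here, 3 held 3 units (those of HSPA8, HSP90AA1 and HSPD1) and 8 held 2 units, in 7 of the 10 genes. The letters were not in the windows of HSPH1, BAG3 and HSPE1. Each sequence below reads 5′ to 3′ on the gene's strand, is 30 bases long and has the matched units in capitals. The first 4 hold 3 units or more and the others hold 2.
HSPA8, 218 to 230 bases before the start, chr11:123062345-123062374, reverse strand: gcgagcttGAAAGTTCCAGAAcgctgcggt
HSPA8, 43 to 55 bases before the start, chr11:123062170-123062199, reverse strand: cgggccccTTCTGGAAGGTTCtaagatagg
HSP90AA1, 76 to 88 bases before the start, chr14:102087111-102087140, reverse strand: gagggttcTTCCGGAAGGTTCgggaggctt
HSPD1, 228 to 245 bases before the start, chr2:197500061-197500090, reverse strand: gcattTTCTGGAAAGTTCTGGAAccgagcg
DNAJB1, 70 to 77 bases before the start, chr19:14518456-14518485, reverse strand: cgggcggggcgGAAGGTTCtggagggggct
HSPB1, 175 to 182 bases before the start, chr7:76302480-76302509, forward strand: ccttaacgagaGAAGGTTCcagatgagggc
HSPA1A, 99 to 106 bases before the start, chr6:31815426-31815455, forward strand: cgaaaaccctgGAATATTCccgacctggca
HSPA1B, 98 to 105 bases before the start, chr6:31827622-31827651, forward strand: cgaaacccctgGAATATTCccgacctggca
The HSPD1 match precedes the second of that gene's listed starts, and HSPD1, HSP90AA1 and DNAJB1 each also have a window without these letters at another start. The printed HSPD1 stretch also lies just before the start of the HSPE1 window (chr2:197500129-197500428), outside what was searched for HSPE1. A match says only that these letters are there, not that a factor was bound in these cells. A missing match says only that these exact letters were not in the windows searched, not that the gene lacks such an element.

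In GRCh38, with gene limits from GENCODE release 29, HSPA1A lies at chr6:31815464-31817946 and HSPA1B beside it at chr6:31827735-31830255, both on the forward strand. HSPD1 (chr2:197486581-197516737, reverse strand) and HSPE1 (chr2:197499994-197503457, forward strand) are read in opposite directions. At these limits HSPE1 lies within HSPD1, and their exons overlap by 281 bases on opposite strands. The other genes are HSPA8 at chr11:123057489-123063230, HSP90AA1 at chr14:102080738-102139699, DNAJB1 at chr19:14514770-14529770 and HSPH1 at chr13:31134974-31162388, all on the reverse strand, and BAG3 at chr10:119651370-119677819 and HSPB1 at chr7:76302544-76304295 on the forward strand. Other overlaps with a gene of the table were DNAJB1 with TECR (211 exon bases) and HSP90AA1 with WDR20 (197), on opposite strands, and HSPE1 with the read-through gene HSPE1-MOB4 (192) on the same strand. The library kit marks strand, per the labels, but whether the deposited counts used it is not given in the sources used here. Reads from the bases on opposite strands could thus have been given to either gene. Strand cannot part HSPE1 from HSPE1-MOB4, and how reads from their shared bases were counted is not given either.

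The table held between 10018181 and 24822807 counts per library, with a median of 13468792, and 11428 genes passed the filter on low counts. In the sgIGF2BP2 line, IGF2BP2 was at 83.8, 84.0, 86.5 and 86.7 CPM (counts per 1000000 counts of a library, TMM-scaled) with DMSO and 34.5, 33.5, 38 and 29.5 with Dox, and it was at 103, 109, 113 and 109 CPM with siControl and 31.7, 29.6, 29.2 and 30.4 with siIGF2BP2. In the sgIGF2BP3 line, IGF2BP3 was at 179.6, 181, 175 and 185 CPM with DMSO and 56.1, 58.5, 59.1 and 51.1 with Dox, and it was at 168, 173, 164 and 174 CPM with siControl and 25, 24.9, 26.4 and 22.6 with siIGF2BP3. The targeted gene was thus low in every library labelled as depleted. Dox in sgIGF2BP2 cells was also the setting of the 3 most unlike pairs of replicates, all with replicate 2 (chi-square per gene 11.8 to 16.6, against a median of 2.27 over 60 pairs). The next 3 all held siIGF2BP2 replicate 3 (5.64 to 6.42). Of the epithelial markers, EPCAM, KRT8, KRT18 and CDX2 were detected in every library, while KRT19, CDH1 and VIL1 had 0 counts in at least 32 libraries and LGALS4 in 17. Markers of leukocytes, endothelium and fibroblasts reached at most 1.1 CPM (COL1A1).

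By level per length, the genes ranged from very abundant mRNAs to an inducible pair with almost no counts. Levels here are counts per kilobase of exon, scaled to sum to 1000000 in every library. HSP90AA1 had a median of 1351 over the 40 libraries (range 1233 to 1565) and HSPA8 a median of 1289 (1108 to 1434). HSPB1 followed at 1191 (1039 to 1409.7) and HSPD1 at 956 (779 to 1104). The ranges of HSP90AA1, HSPA8 and HSPB1 overlap, and their order within each library was not compared. HSPE1 and the genes below it did not reach the lowest value of HSPD1.

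HSPE1 lay at 176 (155 to 217), DNAJB1 at 142 (121 to 156), BAG3 at 141 (112 to 151) and HSPH1 at 37.2 (32.7 to 40.6). HSPE1 encodes the lid of the chamber that HSPD1 forms, and at this scale its level was far below that of its partner. The HSPE1 value rests on an exon union of 1977 bases, with 192 exon bases shared with HSPE1-MOB4 on the same strand. The part of these in the low HSPE1 level was not tested. The value of HSPH1 rests on an exon union of 8390 bases, the longest of the 10. The ranges of DNAJB1 and BAG3 overlap nearly in full, and their order within each library was not compared. Copies of some of these genes elsewhere in the genome can take reads: 17 annotated pseudogenes are named after HSPA8, 17 after HSPD1 and 26 after HSPE1. Of the 100-base stretches of their transcripts, 0% for HSPA8, 1.95% for HSPD1 and 2.45% for HSPE1 occur exactly in the transcripts of another gene. Genes at an overlapping position, such as HSPE1-MOB4 for HSPE1, were left out of these shares.

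HSPA1A had 0 to 10 counts per library, 175 over all 40, and HSPA1B had 0 to 2 counts, 9 in all. In 33 libraries HSPA1B had 0 counts, which allows up to 3 counts, or 0.121 to 0.299 CPM depending on the library, for counting error only. These 2 genes encode almost the same protein, the HSP70 that rises most on heating. At the read length of 100 bases given in the labels, 67.3% of the stretches of HSPA1A transcripts also occur in HSPA1B and 68.8% of those of HSPA1B in HSPA1A. Only 32.7% and 31.2% occur in no other gene, with genes at an overlapping position left out. The transcript AL671762.1, not among the genes of the table, was left out in this way for HSPA1B. It shares 920 exon bases with HSPA1B on the same strand, and 29.4% of the HSPA1A stretches occur in it. Whether reads that match both genes were dropped is not given in the sources used here, and the part of this in the low counts was not tested.

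Both inducible HSP70 genes failed the filter, so 8 of the 10 genes were tested. HSPA1A summed to 24 counts in the siControl libraries of sgIGF2BP2 cells (7, 9, 4 and 4) and to 6 in the siIGF2BP2 libraries (4, 0, 1 and 1). In sgIGF2BP3 cells it summed to 9 with siControl (1, 6, 2 and 0) and to 25 with siIGF2BP3 (5, 7, 6 and 7). These groups touch or overlap in the first line only at 4 counts, and in the second at 5 to 6. Without the filter, edgeR's adjusted p was 0.0451 for HSPA1A after siIGF2BP2, 0.423 after siIGF2BP3 and 0.0132 for the difference between these effects, all on 10 counts or fewer per library.

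**Figure D1:**
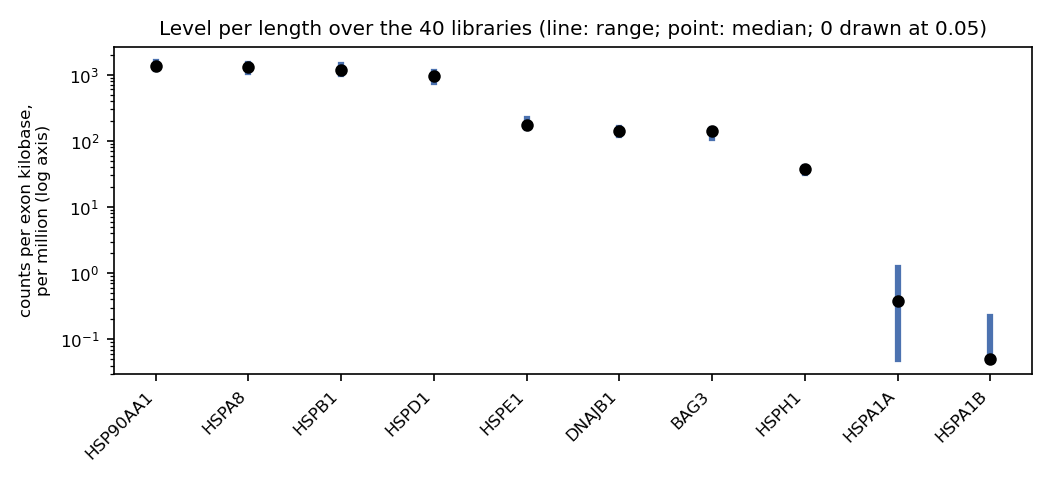
Level of each of the 10 genes in counts per exon kilobase, scaled to sum to 1000000 in every library (log axis), with the range over the 40 libraries as a line and the median as a point, and values of 0 drawn at 0.05. HSP90AA1, HSPA8, HSPB1 and HSPD1 lie at medians of 956 to 1351, and HSPA1A and HSPA1B lie far below at 0.385 and 0.

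The following results use CPM, which compares a gene with itself across libraries. In bulk RNA, a lower share of counts cannot be told apart from fewer cells that make the mRNA. The 8 tested genes together held a mean of 0.726% of all counts in sgAAVS1 cells with DMSO, 0.741% in sgIGF2BP2 cells with DMSO and 0.730% in sgIGF2BP3 cells with DMSO. With Dox the shares were 0.678%, 0.682% and 0.698% in the same order. With siControl they were 0.662% in sgIGF2BP2 cells and 0.657% in sgIGF2BP3 cells, and they were 0.596% after siIGF2BP2 and 0.661% after siIGF2BP3. The siIGF2BP2 libraries (0.579% to 0.631%) lay below every library of the other 9 groups (lowest 0.645%).

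**Figure D2:**
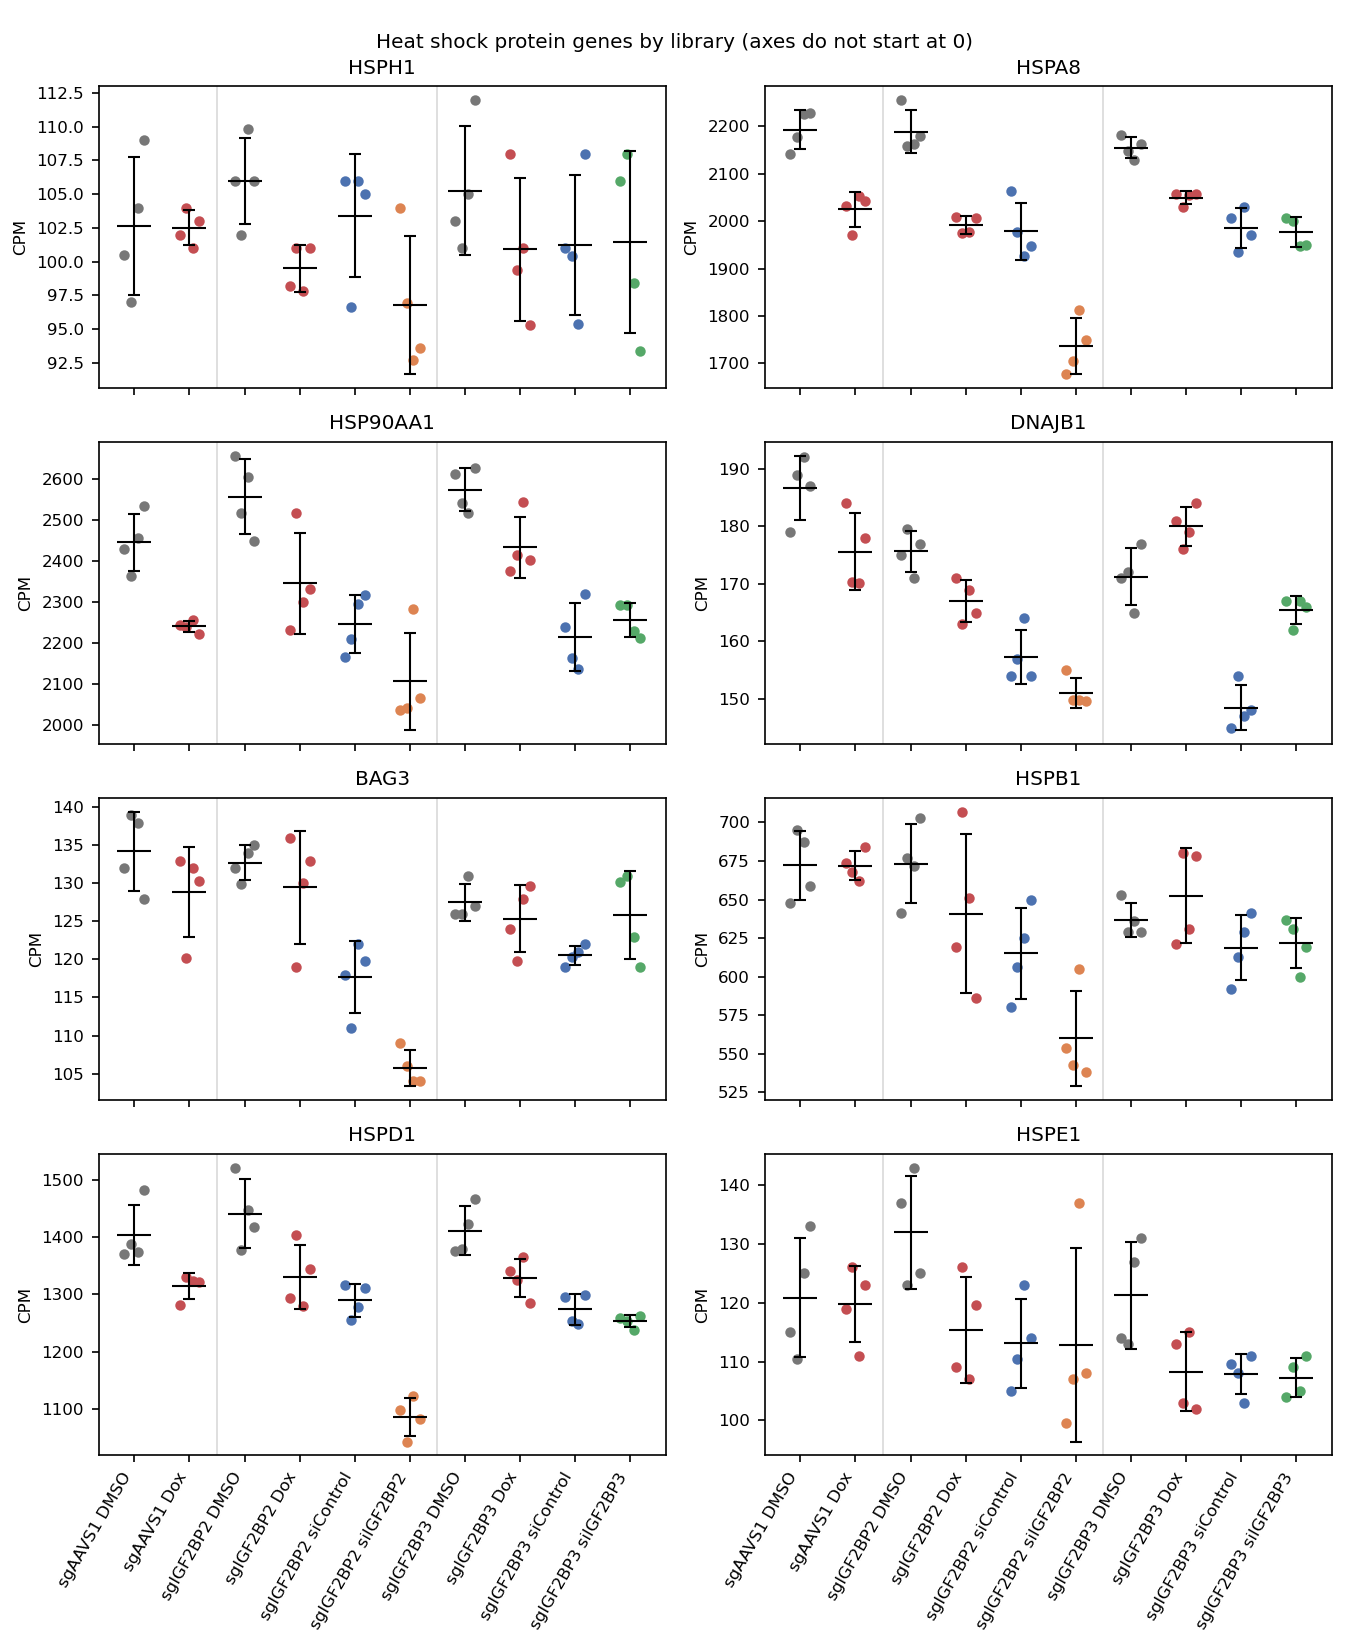
CPM of the 8 tested genes (axes do not start at 0), 4 libraries per group as points, with the mean and SD as black bars; colours show the treatment and grey lines part the lines sgAAVS1, sgIGF2BP2 and sgIGF2BP3. HSPA8 and HSPD1 are lowest in the 4 siIGF2BP2 libraries, at 1678 to 1812 and 1043 to 1123 CPM.

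The lines were first compared without depletion, to see how alike they began. With DMSO, edgeR's quasi-likelihood test called none of the 8 genes between any 2 lines, and none with siControl between sgIGF2BP3 and sgIGF2BP2 cells, at an adjusted p under 0.05 over all genes tested. In each of these 4 comparisons 0.0175% of all genes were called. At an unadjusted p under 0.05 there were 2 genes for sgIGF2BP2 against sgAAVS1 cells, 3 for sgIGF2BP3 against sgAAVS1, 2 for sgIGF2BP3 against sgIGF2BP2 with DMSO and 1 with siControl, and DESeq2 called 0 in each. DNAJB1 was at 179, 189, 192 and 187 CPM in sgAAVS1 cells with DMSO and at 171, 172, 165 and 177 in sgIGF2BP3 cells, which do not overlap. Its log2 fold change was −0.124 with an approximate 95% interval of −0.189 to −0.0596 and an adjusted p of 0.143. A p above the threshold does not show that the lines were alike.

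Dox was compared with DMSO in sgAAVS1 cells, which measures Dox, Cas9 and any cutting at AAVS1 together, without loss of an IGF2BP gene. Of the 8 genes, 3 fell and none rose, where 15.9% of all genes were called, 7.25% higher and 8.68% lower. The 3 were the HSP70 gene HSPA8, the HSP90 gene HSP90AA1 and the mitochondrial chaperonin gene HSPD1, all among the abundant ones. The median log2 fold change of the 8 was −0.072, against 0.0044 over all genes. Without the sign, it was 0.072 for the 8 and 0.09 over all genes, so the changes were not larger than usual. All 8 estimates were below 0 with TMM scaling, while with total counts in its place 5 of 8 were below 0, the median was −0.032, that of all genes was 0.044 and 1 gene was called.

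HSPA8 was at 2141, 2178, 2226 and 2227 CPM with DMSO and at 2031, 1971, 2053 and 2043 with Dox. Every Dox library was below every DMSO library, and the change was −7.68% (log2 fold change −0.115, SE 0.0295, edgeR adjusted p = 0.00358). HSP90AA1 was at 2431, 2363, 2456 and 2534 CPM with DMSO and at 2243, 2239, 2257 and 2223 with Dox, again without overlap (−0.127, SE 0.0354, edgeR adjusted p = 0.00799). The 4 Dox libraries of HSP90AA1 were very close to each other. HSPD1 was at 1369.9, 1388, 1373 and 1481 CPM with DMSO and at 1282, 1331, 1324 and 1321 with Dox (−0.0942, SE 0.0326, edgeR adjusted p = 0.0374). The HSPD1 groups did not overlap, but its call was lost in 6 of 14 alternatives, among them leaving out DMSO replicate 4 or Dox replicate 1, 2 or 4, with adjusted p-values up to 0.277. The other 5 had estimates from −0.0872 (DNAJB1, edgeR adjusted p = 0.0619) to −0.000939 (HSPB1).

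Dox in sgIGF2BP2 cells, where IGF2BP2 mRNA was lowered as well, also went with lower values. Of the 8 genes 4 fell and none rose, where 20.4% of all genes were called, 10.0% higher and 10.4% lower, and the median of the 8 was −0.10 against 0.0077 over all genes. Without the sign, the median change was 0.1 for the 8 and 0.093 over all genes. HSPA8 was at 2256, 2158, 2162 and 2179 CPM with DMSO and at 2009, 1974, 1976 and 2006 with Dox, with no overlap (−0.136, SE 0.0295, edgeR adjusted p = 0.000333). HSP90AA1 was at 2658, 2519, 2606 and 2449 CPM with DMSO and at 2231, 2519, 2299.8 and 2333 with Dox (−0.125, SE 0.0354, edgeR adjusted p = 0.00671). Here Dox replicate 2, the library that stood apart, was as high as a DMSO library.

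HSPD1 was at 1521, 1377, 1447 and 1418 CPM with DMSO and at 1293, 1403, 1280.2 and 1345 with Dox (−0.115, SE 0.0326, edgeR adjusted p = 0.007). Its call was lost without DMSO replicate 1 and with total counts, with adjusted p-values up to 0.0613. HSPE1 was at 137, 123, 143 and 125 CPM with DMSO and at 109, 126, 107 and 119.6 with Dox (−0.192, SE 0.0598, edgeR adjusted p = 0.0148). For HSPD1 and HSPE1 alike the groups overlapped through Dox replicate 2. The call of HSPE1 was lost in 4 of 14 alternatives, by DESeq2 and without DMSO replicate 3, Dox replicate 1 or Dox replicate 3, with adjusted p-values up to 0.115. The co-chaperone genes HSPH1 (−0.0896), DNAJB1 (−0.0749) and BAG3 (−0.0399) and the small heat shock gene HSPB1 (−0.0714) did not pass, with adjusted p-values of 0.15, 0.106, 0.528 and 0.205 in edgeR. Without Dox replicate 2, HSPB1 was at −0.124 and passed (edgeR adjusted p = 0.0155), and BAG3 was at 0.004. The 4 called genes passed without it as well, with HSPA8 at −0.132, HSP90AA1 at −0.161, HSPD1 at −0.142 and HSPE1 at −0.241.

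In sgIGF2BP3 cells, Dox called none of the 8 genes, where 2.64% of all genes were called, 1.64% higher and 1.01% lower. At an unadjusted p under 0.05 there were 5, DESeq2 called 1 (HSPA8), and a fit on these 8 libraries alone called 3 (HSP90AA1, HSPD1 and HSPE1). HSPA8 was at 2182, 2148, 2128 and 2162 CPM with DMSO and at 2057, 2029.8, 2054 and 2058 with Dox, and although the groups did not overlap its edgeR adjusted p was 0.174 (−0.0722, SE 0.0295). HSPD1 was at 1375, 1379, 1423 and 1467 CPM with DMSO and at 1340.5, 1325, 1365 and 1285 with Dox (−0.0865, SE 0.0326, edgeR adjusted p = 0.135). HSPE1 had the lowest estimate, −0.165 with an interval of −0.284 to −0.0459. DNAJB1 and HSPB1 (0.0354, edgeR adjusted p = 0.704) had estimates above 0. DNAJB1 was at 171, 172, 165 and 177 CPM with DMSO and at 181, 176, 179 and 184 with Dox (0.071, SE 0.0333, edgeR adjusted p = 0.261), and the groups overlapped at 176 to 177 CPM.

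Whether Dox acted differently between lines was tested directly. Between sgIGF2BP2 and sgAAVS1 cells 0 of the 8 genes differed by edgeR (1 at an unadjusted p under 0.05, 0 by DESeq2), where 6.97% of all genes were called, 4.01% higher and 2.97% lower in the IGF2BP2 line. For HSPA8 the difference in log2 fold change was −0.0211 with an interval of −0.103 to 0.0606, and for HSP90AA1 it was 0.00178 with an interval of −0.0962 to 0.0998. For HSPE1, whose call was made in one line only, it was −0.17 with an interval of −0.337 to −0.00352 and an edgeR adjusted p of 0.231. Between sgIGF2BP3 and sgAAVS1 cells 1 of the 8 differed, where 7.78% of all genes were called, 4.53% higher and 3.25% lower.

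That gene was DNAJB1, the J-domain partner of cytosolic HSP70, with a difference of 0.158 (SE 0.0471, edgeR adjusted p = 0.0255). The estimate was −0.0872 in sgAAVS1 and 0.071 in sgIGF2BP3 cells, and neither passed on its own. With DMSO the gene was lower in sgIGF2BP3 than in sgAAVS1 cells, without overlap (−0.124, edgeR adjusted p = 0.143), and this gap enters the difference. With Dox it was at 184, 170.3, 170.2 and 178 CPM in sgAAVS1 cells and at 181, 176, 179 and 184 in sgIGF2BP3 cells, which overlap. The call was lost in 9 of 22 alternatives: with total counts, no filter or thinned libraries, and without DMSO replicate 2 or 3 or Dox replicate 2 or 3 of sgAAVS1 cells, DMSO replicate 3 or Dox replicate 4 of sgIGF2BP3 cells, with adjusted p-values up to 0.115. Between sgIGF2BP3 and sgIGF2BP2 cells 0 of the 8 differed by edgeR (1 at an unadjusted p under 0.05, and 1 by DESeq2, DNAJB1), where 2.91% of all genes were called, 1.69% higher and 1.23% lower. The edgeR difference for DNAJB1 there was 0.146 with an interval of 0.0533 to 0.238 and an adjusted p of 0.073.

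**Figure D3:**
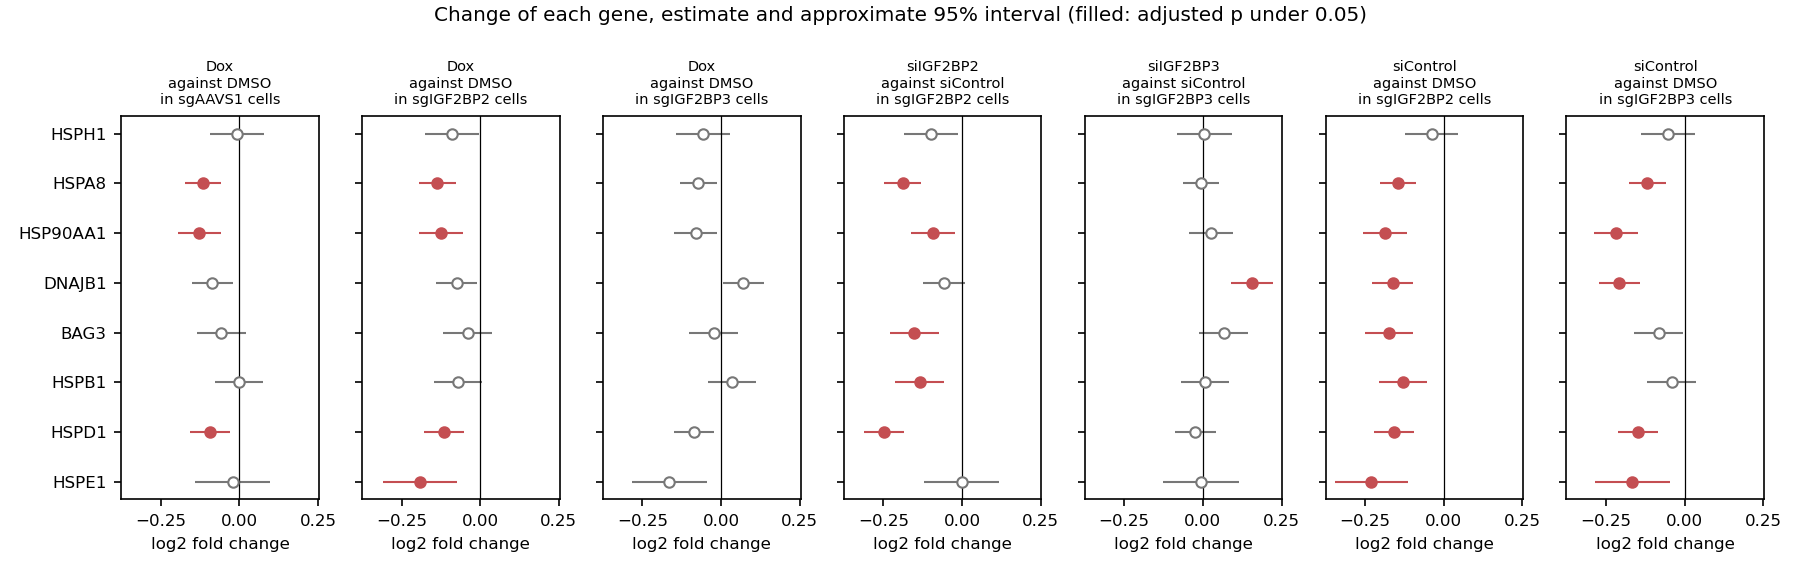
Log2 fold change of the 8 tested genes in 7 comparisons, with approximate 95% intervals (1.96 SE) as lines; filled points passed an adjusted p under 0.05 in edgeR. HSPA8 and HSPD1 lie below 0 with filled points in 5 of the 7 panels, and DNAJB1 is filled above 0 only for siIGF2BP3.

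The siRNA pool against IGF2BP2 was compared with siControl in the same line. Of the 8 genes, 5 fell and none rose, where 36.8% of all genes were called, 18.4% higher and 18.4% lower. The 5 were HSPA8, HSP90AA1, BAG3, HSPB1 and HSPD1, which span the HSP70, HSP90, small heat shock and mitochondrial families. The median of the 8 was −0.12 against 0.011 over all genes. Without the sign, the median change was 0.12 for the 8 and 0.13 over all genes, so these genes shared a direction rather than a larger size. All 8 estimates were below 0 with TMM scaling, and 7 of 8 with total counts, where the median was −0.09 against 0.037.

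HSPD1 was at 1316, 1255, 1278 and 1310.3 CPM with siControl and at 1098, 1043, 1123 and 1082 with siIGF2BP2. This change of −15.8% was the largest of the 8 (−0.247 on the log2 scale, SE 0.0327, edgeR adjusted p = 4.75e-09), with the groups far apart. HSPA8 was at 2064, 1976, 1927 and 1948 CPM with siControl and at 1678, 1705, 1812 and 1750.1 with siIGF2BP2, a change of −12.3% (−0.189, SE 0.0295, edgeR adjusted p = 3.36e-07). BAG3, which couples HSP70 to the removal of damaged proteins by autophagy, was at 118, 111, 122 and 119.8 CPM and then at 109, 106, 104 and 104 (−0.151, SE 0.04, edgeR adjusted p = 0.00185). Neither HSPA8 nor BAG3 overlapped between the groups. How common such a lack of overlap was among all genes tested was not counted, so it only describes these genes.

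HSPB1 was at 580.3, 606, 625 and 649.9 CPM with siControl and at 554, 543, 605 and 538 with siIGF2BP2 (−0.135, SE 0.0393, edgeR adjusted p = 0.0046). HSP90AA1 was at 2166, 2209, 2295 and 2317 CPM and then at 2037, 2040.5, 2284 and 2065 (−0.0929, SE 0.0354, edgeR adjusted p = 0.0324). In both genes the high library of the depleted group was replicate 3. The call of HSP90AA1 was lost in 7 of 14 alternatives: with total counts, with these 8 libraries alone, and without siControl replicate 3 or 4 or siIGF2BP2 replicate 1, 2 or 4, with adjusted p-values up to 0.119.

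For HSPE1 the estimate rested on 1 library. It was at 105, 110.4, 123 and 114 CPM with siControl and at 99.5, 107, 137 and 108 with siIGF2BP2, with a log2 fold change of −0.00153, an interval of −0.12 to 0.117 and an edgeR adjusted p of 0.987. The ratio of HSPD1 to HSPE1 counts averaged 11.4 with siControl (10.4 to 12.5) and 9.76 with siIGF2BP2 (8.22 to 11), which overlap and were not tested. The lowest ratio belonged to replicate 3, the library that stood apart, whose HSPE1 value was 137 CPM. Without it the HSPE1 estimate was −0.108 (edgeR adjusted p = 0.138), and over all alternatives it ran from −0.108 to 0.0491. Without that library 5 of the 8 genes were called, as with it, with HSPD1 at −0.265, HSPA8 at −0.211, HSPB1 at −0.175, BAG3 at −0.143 and HSP90AA1 at −0.135. HSPH1 (−0.0982, edgeR adjusted p = 0.0723) and DNAJB1 (−0.0565, edgeR adjusted p = 0.19) also missed the threshold.

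After siIGF2BP3, 1 of the 8 genes changed, where 2.34% of all genes were called, 0.936% higher and 1.40% lower. DNAJB1 was at 145, 154, 147 and 148 CPM with siControl and at 167, 162, 167 and 166 with siIGF2BP3. All 4 depleted libraries were above all 4 controls, and the change was 11.5% (log2 fold change 0.157, SE 0.034, edgeR adjusted p = 0.00231). This call was kept in all 14 alternatives, with adjusted p-values from 0.000368 to 0.0171. The depleted mean was 166 ± 2.28 CPM (SD, n = 4) and that of the same line with DMSO was 171 ± 5.05 CPM; these groups overlap and were not tested.

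The other genes lay near 0 after siIGF2BP3. HSPA8 was at 2007, 1935, 2030.2 and 1970.0 CPM with siControl and at 2007, 2000.3, 1948 and 1949.7 with siIGF2BP3 (−0.00634, interval −0.0642 to 0.0515). HSPD1 was at 1295, 1253, 1249 and 1299 CPM and then at 1259, 1253, 1238 and 1263 (−0.0234, interval −0.0875 to 0.0407). The intervals of these 2 genes do not reach the size of their fall after siIGF2BP2. BAG3 had the next highest estimate after DNAJB1, 0.0657, with an interval of −0.0121 to 0.144.

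The difference between the siRNA effects (siIGF2BP3 minus siIGF2BP2) was called for 4 of the 8 genes, all higher, where 18.7% of all genes were called, 9.88% higher and 8.82% lower. These were HSPD1 (0.224, SE 0.0462, edgeR adjusted p = 0.000191), BAG3 (0.217, SE 0.0564, edgeR adjusted p = 0.00335), DNAJB1 (0.214, SE 0.0479, edgeR adjusted p = 0.000602) and HSPA8 (0.182, SE 0.0417, edgeR adjusted p = 0.000764). For HSPD1, HSPA8 and BAG3 the siIGF2BP2 fall made up most of the difference, and for DNAJB1 the siIGF2BP3 rise did. DNAJB1 was also lower with siControl in sgIGF2BP3 than in sgIGF2BP2 cells, without overlap (−0.0819, edgeR adjusted p = 0.831), and this gap enters its difference. HSPB1 (0.142, interval 0.0335 to 0.251, edgeR adjusted p = 0.0627) and HSP90AA1 (0.12, interval 0.0216 to 0.218, edgeR adjusted p = 0.0862) did not pass. HSPB1 passed in 7 of 22 alternatives, and without siIGF2BP2 replicate 3 both passed (0.182 and 0.162, edgeR adjusted p = 0.00964 and 0.00792), which made 6 called genes. The pools were given to different lines, so line and pool cannot be told apart here.

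Most of these genes were lower in transfected control cells than in DMSO cells of the same line. These groups differ in transfection, the siRNA, the solvent and the length of treatment, which cannot be told apart. In sgIGF2BP2 cells 7 of the 8 genes fell and none rose, where 18.4% of all genes were called, 10.2% higher and 8.16% lower. In sgIGF2BP3 cells 5 of the 8 fell and none rose, where 19.4% were called, 10.9% higher and 8.54% lower. The medians of the 8 were −0.16 and −0.13, against −0.0021 and −0.0043 over all genes. Without the sign, they were 0.16 and 0.13 for the 8, against 0.091 and 0.095 over all genes. These comparisons share their DMSO libraries with the Dox comparisons and their siControl libraries with the siRNA comparisons, so the values are not independent of those above.

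HSP90AA1 went from 2658, 2519, 2606 and 2449 CPM with DMSO to 2166, 2209, 2295 and 2317 with siControl in sgIGF2BP2 cells (−0.187, SE 0.0353, edgeR adjusted p = 4.85e-05). In sgIGF2BP3 cells it went from 2613, 2542, 2518 and 2628 CPM to 2239.9, 2164, 2137 and 2320.5 (−0.217, SE 0.0354, edgeR adjusted p = 2.44e-06). The groups were separate in both lines, though the share of all genes without overlap was not counted here either. DNAJB1 went from 175, 179.6, 171 and 177 CPM to 154, 157, 164 and 154 in the first line (−0.162, SE 0.0332, edgeR adjusted p = 0.000193) and from 171, 172, 165 and 177 to 145, 154, 147 and 148 in the second (−0.207, SE 0.0338, edgeR adjusted p = 2.52e-06). With the siIGF2BP2 group, these were the 3 lowest group means of DNAJB1 (148 to 157 CPM).

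HSPA8, the housekeeping HSP70, fell by 9.58% and by 7.87% in the 2 lines (edgeR adjusted p = 0.000157 and 0.00205), and HSPD1 fell by 10.5% and by 9.71% (edgeR adjusted p = 0.000177 and 0.000486). Neither gene overlapped between siControl and DMSO in either line. HSPE1 went from 137, 123, 143 and 125 CPM to 105, 110.4, 123 and 114 in sgIGF2BP2 cells (−0.231, SE 0.0592, edgeR adjusted p = 0.00291) and from 114, 113, 127 and 131 to 109.5, 108, 103 and 111 in sgIGF2BP3 cells (−0.167, SE 0.0608, edgeR adjusted p = 0.0428). The second call was lost in 7 of 14 alternatives: by DESeq2 and without DMSO replicate 3 or 4 or any 1 siControl library, with adjusted p-values up to 0.189. BAG3 fell in sgIGF2BP2 cells (132, 129.9, 134 and 135 CPM to 118, 111, 122 and 119.8, −0.175, edgeR adjusted p = 6e-04), while in sgIGF2BP3 cells its estimate was −0.082 (edgeR adjusted p = 0.141). HSPB1 had −0.131 in the first line (edgeR adjusted p = 0.0116, lost without DMSO replicate 4 or siControl replicate 1, with adjusted p-values up to 0.0827) and −0.0415 in the second (edgeR adjusted p = 0.503). HSPH1 was near 100 CPM throughout and passed in no comparison by the main edgeR test; its group means ran from 96.7 to 106 CPM.

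Other genes of the same machinery were read from lists of 18 further heat-inducible HSF1 targets, 17 tested genes of the HSP70 family and its partners, 9 HSP90 co-chaperones, 14 genes of the cytosolic chaperonin TRiC and of prefoldin, 15 mitochondrial chaperones and proteases, 10 chaperones of the endoplasmic reticulum and 4 HSF genes. Of 9 further genes listed by symbol as small heat shock proteins, only 1 (HSPB11) passed the filter, so that family was not measured by this list. HSPB11 rose after siIGF2BP2 (0.202, SE 0.0702, edgeR adjusted p = 0.0185) and fell with Dox in the same line (−0.201, SE 0.0718, edgeR adjusted p = 0.036). Over all genes 18.4% rose and 18.4% fell after siIGF2BP2, the background for the counts that follow. After siIGF2BP2, 9 of the 18 HSF1 targets fell and none rose, with a median of −0.13 (8 fell with total counts). CHORDC1, an HSP90 partner, had means of 21.0 ± 1.69 CPM with siControl and 12.1 ± 0.447 with siIGF2BP2 (SD, n = 4; −0.794, SE 0.0862, edgeR adjusted p = 1.04e-11). HSPA4L, an HSP110 relative, had 79.4 ± 3.68 and 53.7 ± 1.70 CPM (−0.564, SE 0.0478, edgeR adjusted p = 8.29e-16). Both fell by more than any of the 8 genes above.

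In the mitochondrial list 7 of 15 genes fell after siIGF2BP2 and 2 rose, with a median of −0.12. The mitochondrial HSP70 gene HSPA9 had 957 ± 21 CPM with siControl and 639 ± 9.46 with siIGF2BP2 (SD, n = 4; −0.583, SE 0.0288, edgeR adjusted p = 3.19e-27), and AFG3L2, an inner-membrane protease, had −0.279 (SE 0.0381, edgeR adjusted p = 1.12e-08). LONP1, a matrix protease, rose (0.17, SE 0.037, edgeR adjusted p = 0.000162), as did SPG7 (0.106, edgeR adjusted p = 0.035), whose product assembles with that of AFG3L2. Of the TRiC and prefoldin genes 9 of 14 fell and none rose, among them CCT2 (−0.252, SE 0.0308) and PFDN4 (−0.356, SE 0.082), and with total counts this was 5. The fallers in the next 3 lists made up a share near that of all genes: PDIA4 and CALR rose and HYOU1 and SDF2L1 fell among 10 reticulum chaperones, 3 of 17 HSP70 partners rose and 3 fell, and 2 of 9 HSP90 co-chaperones fell (SUGT1 and UNC45A). HSF1 itself was at 166 ± 6.44 CPM with siControl and 152 ± 2.78 with siIGF2BP2 (SD, n = 4; −0.121, SE 0.0386, edgeR adjusted p = 0.0105), and HSF4 rose (0.45, SE 0.0733, edgeR adjusted p = 8.57e-07).

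**Figure D4:**
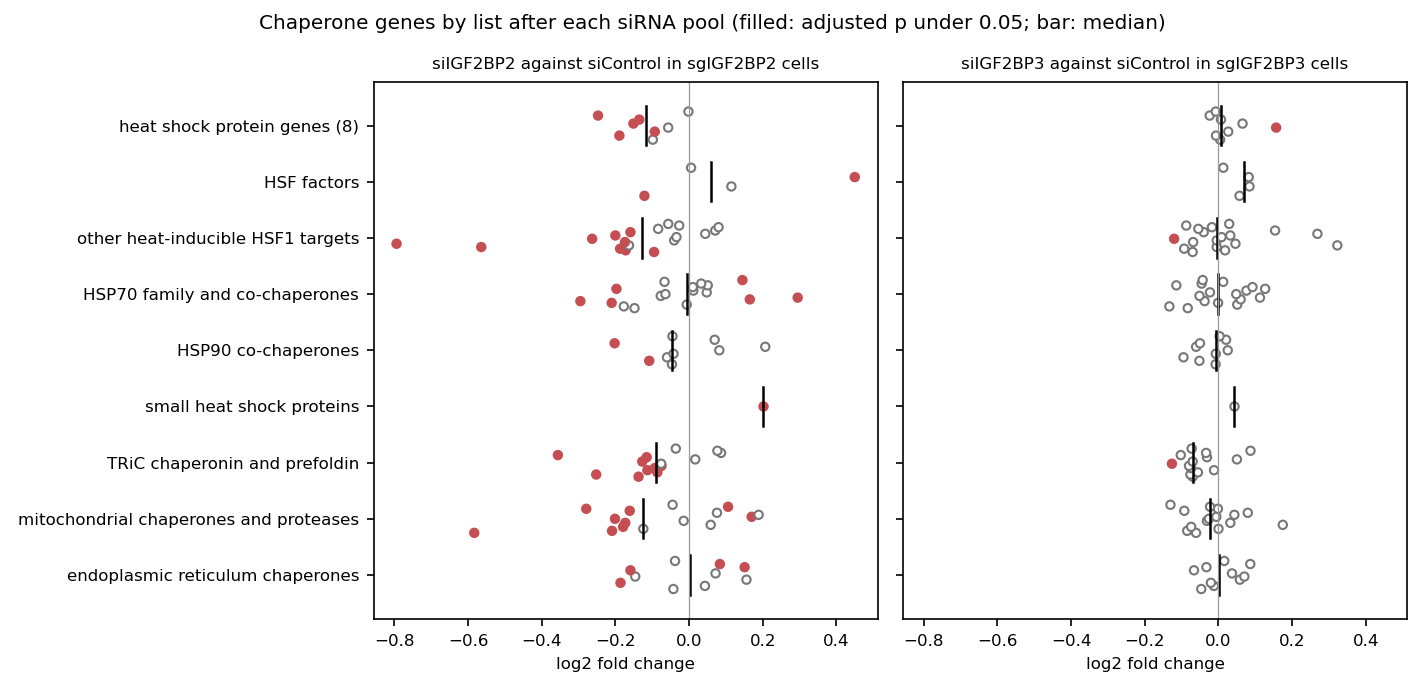
Log2 fold changes after each siRNA pool for the 8 tested genes and for 8 lists of other chaperone genes, 1 point per gene, filled where the edgeR adjusted p was under 0.05, with the median of each list as a black bar. After siIGF2BP2 the medians of the 8 genes and of the HSF1 target list lie at −0.12 and −0.13, with CHORDC1 at −0.794 and HSPA9 at −0.583, and after siIGF2BP3 few points are filled.

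After siIGF2BP3, where 2.34% of all genes were called, the lists held 2 called genes in all, the HSP90 co-chaperone FKBP4 (−0.12, edgeR adjusted p = 0.0112) and CCT7 (−0.126, edgeR adjusted p = 0.033). With Dox in sgAAVS1 cells, where 7.25% of all genes rose and 8.68% fell, 2 of the 18 HSF1 targets rose (DNAJB4 0.477, HSPA4L 0.20) and 3 fell, among them HSP90AB1 and STIP1 (−0.141 each). STUB1, the ubiquitin ligase that marks HSP70 clients, fell by 0.277 on the log2 scale there (SE 0.0404, edgeR adjusted p = 4.03e-07). With Dox in sgIGF2BP2 cells, where 10.0% of all genes rose and 10.4% fell, 6 of the 18 HSF1 targets fell and 3 rose. The largest rises were those of DNAJB4 (0.383, edgeR adjusted p = 0.0116) and IER5 (0.323, edgeR adjusted p = 0.000593), and the largest falls those of PTGES3 (−0.291, SE 0.0363, edgeR adjusted p = 3.42e-09) and CACYBP (−0.287, SE 0.0386, edgeR adjusted p = 2.64e-08). These HSP90 partner genes also differed from sgAAVS1 cells in the test of the Dox effects, PTGES3 by −0.256 (edgeR adjusted p = 0.000502) and CACYBP by −0.302 (edgeR adjusted p = 0.000101). In sgIGF2BP3 cells 3 of the 18 fell with Dox, PTGES3 and CACYBP among them, where 1.01% of all genes fell.

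With siControl against DMSO, 10 of the 18 HSF1 targets fell and 1 rose in sgIGF2BP2 cells, where 8.16% of all genes fell and 10.2% rose. In sgIGF2BP3 cells 8 fell and 1 rose, where 8.54% of all genes fell and 10.9% rose. The medians were −0.11 and −0.098. DNAJA1, a J-domain protein, fell in both lines (−0.196 and −0.19, edgeR adjusted p = 2.23e-06 and 3.87e-06). The gene that rose in both was SERPINH1 (0.292 and 0.359, edgeR adjusted p = 1.11e-10 and 6.29e-14), a collagen chaperone of the endoplasmic reticulum. Of the TRiC and prefoldin genes 5 of 14 fell in each line, with all 14 estimates below 0 in both under TMM and under total counts.

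As a description, each of the 8 genes was set beside the tested genes outside the 8 with the most similar log2 CPM over the 40 libraries. These values share libraries, depth and treatment groups. For DNAJB1 these were the immediate early genes EGR1 (Pearson's r = 0.88) and JUN (0.87) and the neuropeptide gene VGF (0.86), and with the group means removed r was 0.53, 0.18 and 0.31. EGR1 had 373 ± 14.9 CPM with siControl in sgIGF2BP2 cells against 475 ± 24.4 with DMSO (SD, n = 4), and DNAJB1 was low there too. In sgIGF2BP3 cells EGR1 had 356 ± 12.7 CPM with siIGF2BP3 against 464 ± 14.6 with DMSO (SD, n = 4). DNAJB1 was not low in that siIGF2BP3 group, since its 162 to 167 CPM overlapped the 165 to 177 CPM with DMSO. For HSP90AA1 they were PTMA (0.88), its close relative HSP90AB1 (0.86) and BCL2A1 (0.86), with 0.62, 0.62 and 0.58 within groups. For HSPA8 they were PRPS1, CCT2 and PRDX6 (0.89 each), and for HSPE1 they were UQCRH (0.80), SSBP1 (0.79) and RPS3A (0.79).

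Among the 8 genes, HSPA8 and HSPD1 had the highest r, 0.92 over the 40 libraries and 0.30 within groups. Within groups the highest was that of HSP90AA1 and HSPE1, 0.71, with 0.65 for HSP90AA1 and HSPD1 and 0.63 for HSPD1 and HSPE1. Outside the 8, HSPD1 was most like CNBP and TRMT6 (0.92 each), HSPB1 most like ADRM1 and KRT18 (0.84 each), BAG3 most like RRS1 (0.86), and HSPH1 most like BCLAF1 and TOP2B (0.76 each).

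**Figure D5:**
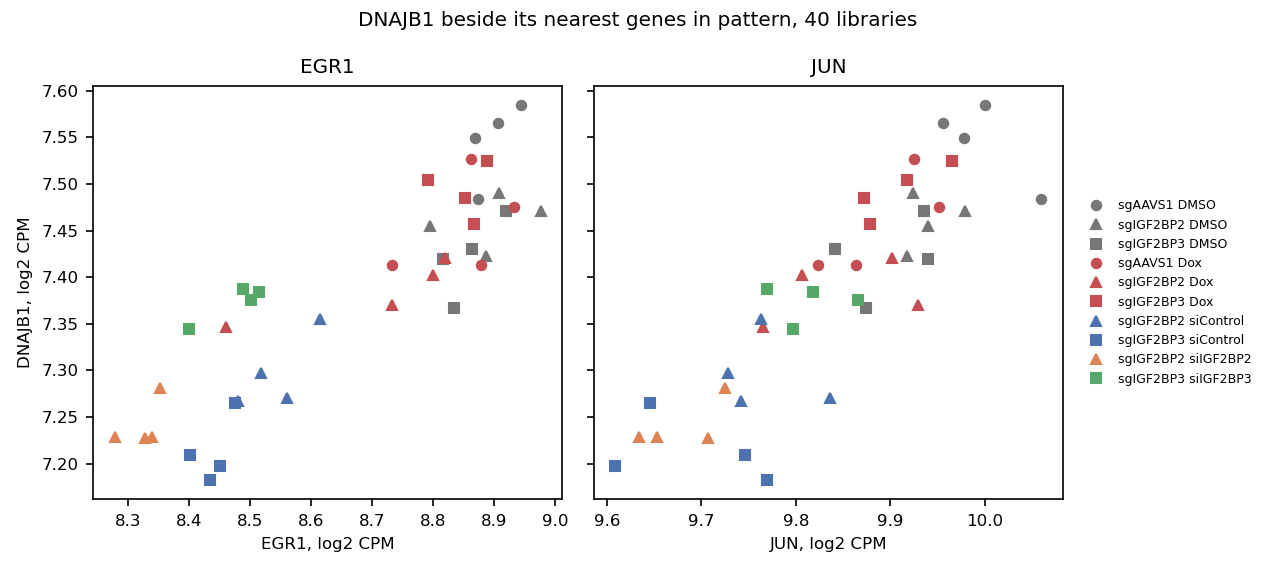
Log2 CPM of DNAJB1 against that of EGR1 (left) and JUN (right) in the 40 libraries, coloured by treatment and shaped by line. The siControl and siIGF2BP2 libraries lie at the lower left and the DMSO libraries at the upper right (r = 0.88 and 0.87). The siIGF2BP3 libraries lie above siControl for DNAJB1, where they overlap DMSO of the same line.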

How the data were processed

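Poly(A) RNA of 40 RKO libraries was measured as raw counts per gene, and the table of counts was deposited by the authors. Per the submitters' processing notes, the genome build was hg38 and STAR 2.7.5c and bcl2fastq 2.20.0.422 were used; their settings, the counting tool, the annotation and the use of strand are not given in the sources used here. Gene names came from GENCODE release 29 (19847 of 19962 IDs matched), and 0 columns lacked a sample. Of the genes, 4125 had no count in any library.

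Counts were fitted with edgeR 4.0.16 (R 4.3.3): all 40 libraries, 1 mean per group, genes kept by filterByExpr by group, TMM factors (0.978 to 1.03), quasi-likelihood tests and Benjamini-Hochberg adjustment over 11428 genes. A gene was called at an adjusted p under 0.05. Lack of overlap between the libraries of compared groups was not counted over all genes, so where stated it describes the named gene only. The common biological coefficient of variation was 3.79%. SE is the log2 fold change over the root of F, and intervals are 1.96 SE. The procedure was tested on simulated counts in which 50 genes per step were changed by known folds in the sgAAVS1 Dox group. It recovered 24% of changes of 1.1-fold, 68% of 1.2-fold, 94% of 1.5-fold and 100% of 2-fold, and 4.67% of its calls were false. The changed genes were drawn at random from all tested genes, and for these, changes of about 1.1-fold were mostly missed. The rates were not measured for the 8 genes, whose median SE was 0.037 for Dox in sgAAVS1 cells. An uncalled gene was still not shown to be unchanged. Fits on all groups share 1 estimate of the spread. The alternatives were total counts in place of TMM, no filter, a replicate block, thinned libraries, only the groups compared, DESeq2 1.42.0, and each library left out.

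The 10 genes and the lists of other chaperones were chosen with earlier results of these data known. Of each list, the text names at most 2 genes per comparison and direction, those with the largest called changes among genes whose log2 CPM averaged 2 or more. The most similar genes are the 3 tested genes other than the 8, above the same level, with the highest Pearson's r of log2 CPM over 40 libraries. Replicates differed by more than counting noise (chi-square per gene 1.49 to 16.6, median 2.27 over 60 pairs) and 0 columns were identical.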

Additional observations from a re-analysis of the deposited data

Results flagged for a closer look

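Of 80 sets of 4 libraries (8 genes in 10 groups), 5 held a library far from the other 3 by Dixon's criterion, where chance gives about 1 in 20. HSPH1 was low at 96.6 CPM in siControl replicate 2 of sgIGF2BP2 cells. HSPA8 was low at 2029.8 CPM in Dox replicate 2 of sgIGF2BP3 cells. HSP90AA1 was high at 2284 CPM in siIGF2BP2 replicate 3, and DNAJB1 was high at 155 CPM in siIGF2BP2 replicate 1. HSPD1 was high at 1481 CPM in DMSO replicate 4 of sgAAVS1 cells. The Dox call of HSPD1 was lost without that library, and also without Dox replicate 1, 2 or 4, with total counts and with no filter.

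In 5 cases edgeR's test of the difference between effects passed. The Dox effect on DNAJB1 was higher by 0.158 (log2) in sgIGF2BP3 than in sgAAVS1 cells, which had differed by −0.124 with DMSO. The siIGF2BP3 effect exceeded the siIGF2BP2 effect by 0.182 for HSPA8, 0.214 for DNAJB1, 0.217 for BAG3 and 0.224 for HSPD1.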

How the results depend on the processing

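Of 120 values (8 genes in 15 comparisons), 30 were called. Of these, 22 were kept in every alternative run and 8 were lost in at least 1, while 10 uncalled values passed in at least 1. In the alternatives 0 called values changed sign. The alternatives gave 1936 values of a gene in a comparison, called and uncalled results together. The number of the 8 genes called for Dox in sgAAVS1 cells was 3, and it was 1 with total counts, 2 with no filter, 4 by DESeq2 and 2 to 4 with 1 library left out. For Dox in sgIGF2BP3 cells it was 0, and it was 1 with no filter, 3 with only the groups compared, 1 by DESeq2 and 0 to 0 with 1 library left out. For the Dox effect in sgIGF2BP3 minus sgAAVS1 cells it was 1, and it was 0 with total counts, no filter or thinned libraries and 0 to 1 with 1 library left out; for sgIGF2BP3 minus sgIGF2BP2 cells it was 0, and 1 by DESeq2. With 1 library left out it was 3 to 5 for Dox in sgIGF2BP2 cells, 4 to 6 for siIGF2BP2, 1 to 1 for siIGF2BP3, 4 to 6 for the difference between the siRNA effects, and 6 to 7 and 4 to 5 for siControl against DMSO in sgIGF2BP2 and sgIGF2BP3 cells. The cause of these changes was not tested, other than that fewer samples or genes entered some fits. With a replicate block the difference between the siRNA effects gave 5 called genes in place of 4 (HSPB1 was added); same-numbered libraries correlated between −0.15 and 0.24, and 16 of 44 were most like their own number, so the numbers were not taken to pair the wells. HSPA1A and HSPA1B summed, at most 10 counts per library, did not pass the filter, so this alternative gave no value. Depth limits these 2 genes most; the other 8 had 975 counts or more in every library, though thinning to the smallest total ended the DNAJB1 call for the Dox effect in sgIGF2BP3 minus sgAAVS1 cells.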
